A study of Mus musculus with 4 samples.

Results

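The intercalated disc is the specialised border where neighbouring cardiomyocytes are joined end to end. Desmosomes there anchor the intermediate filaments of adjoining cells, adherens junctions anchor their actin filaments, and in the mammalian heart both kinds of junction are intermingled. Inherited defects of desmosomal genes are known for causing arrhythmogenic cardiomyopathy. The genes described here are 10 of the 55401 genes in the deposited table, taken by their symbols. They are the desmosomal cadherins *Dsg2* and *Dsc2*, the desmosomal plaque genes *Dsp*, *Jup* and *Pkp2*, the adherens junction genes *Cdh2* and *Ctnna3*, the Xin repeat genes *Xirp1* and *Xirp2*, and the junctional scaffold gene *Tjp1*.

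Polyadenylated RNA was measured in hearts of 8-week-old C57BL/6N mice, 2 wild-type and 2 Ctcf heterozygous, with 1 library for each heart and replicates numbered 1 and 2 in each genotype. The heterozygous mice carried 1 *Ctcf* allele with the CTCF-R567W substitution, which was made in the germline by CRISPR/Cas9, so that all cells of the animal carry it. The labels name no treatment for either genotype and give heart as the tissue without naming a chamber. Values are TPM, the transcript abundance measure that expresses a gene's abundance per transcript length as a share of its library, so that different genes of 1 library can be compared, while read depth is unknown and no counting error can be given. To compare hearts, TPM were scaled by median-of-ratios factors, which were 1.09 and 1.26 for the wild-type libraries and 0.818 and 0.903 for the heterozygous ones (here and below, replicate 1 comes before replicate 2). Fold changes are on the log2(scaled TPM + 1) scale, heterozygous minus wild-type, from limma over 10036 genes with a mean of at least 1 TPM, and this scale understates the change of low genes. *Ctcf* itself had 6.66 and 7.59 TPM in wild-type and 6.14 and 5.20 TPM in heterozygous hearts, and TPM do not separate its 2 alleles. In scaled TPM it overlapped between genotypes, at 6.12 and 6.02 against 7.51 and 5.76 (log2 fold change 0.10, SE 0.16, adjusted p = 0.814 from limma).

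None of the intercalated disc genes passed an adjusted p of 0.05 with a fold change over 1.5, against 0.0199% of all tested genes. Of the 10 genes, 9 reached the minimum level for the test and *Ctnna3* did not. By limma, 1 of the 9 (*Cdh2*) had an unadjusted p under 0.05, a share of genes that was 12.2% over the whole table. Their log2 fold changes ran from -0.51 for *Cdh2* to 0.23 for *Dsg2* with a median of -0.23, where the whole tested table had a median of 0.00. In scaled TPM, both heterozygous hearts lay below both wild-type hearts for 5 of the 9 genes (*Cdh2*, *Dsp*, *Xirp2*, *Jup* and *Tjp1*), as they did for 23.3% of all tested genes. For none of the 9 did both heterozygous hearts lie above both wild-type hearts, which was the case for 23.7% of all tested genes, so that the genotypes were apart for 5 of the 9 genes and for 47.0% of the table.

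**Figure D1:**
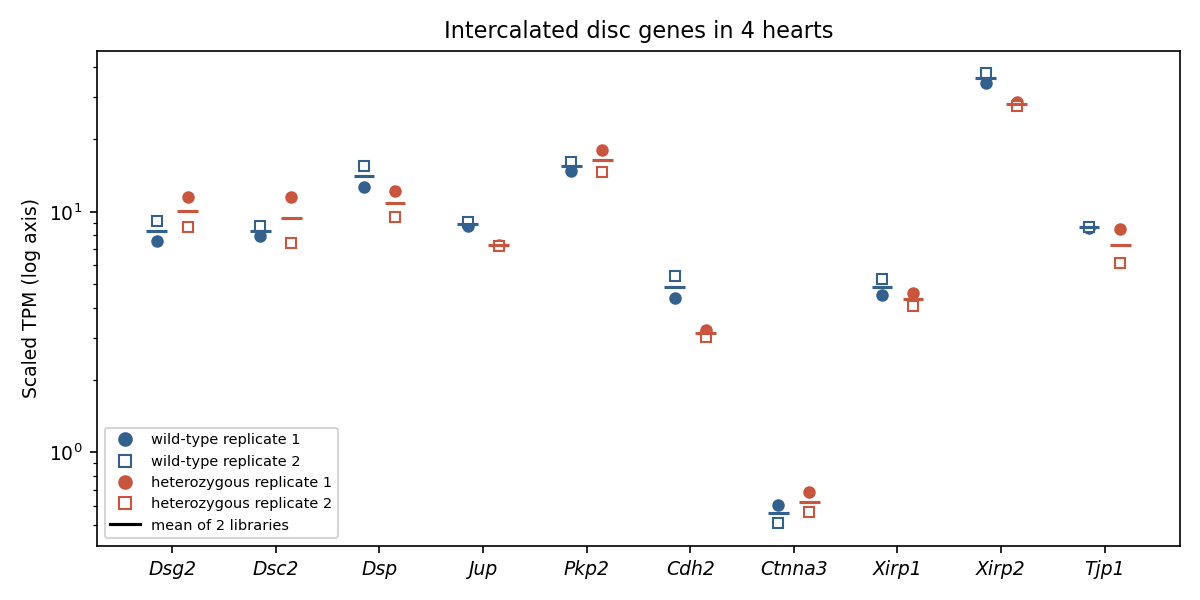
Scaled TPM (vertical, log axis) of the 10 intercalated disc genes in each of the 4 hearts, with wild-type in blue, heterozygous in red, filled circles for replicate 1, open squares for replicate 2 and bars for the mean of 2 libraries. *Xirp2* stood highest and *Ctnna3* lowest in every heart, and the genotypes lay farthest apart on this axis for *Cdh2*.

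The choice of scale moved all of these values together. On TPM as deposited, the 9 intercalated disc genes had a median log2 fold change of -0.62, beside -0.35 over the whole tested table. On that scale both heterozygous hearts lay below both wild-type hearts for 7 of the 9, beside 67.8% of all tested genes, and the adjusted p values from limma lay between 0.0891 (*Cdh2*) and 0.567 (*Dsg2*). Genes of the mitochondrial genome took 64.7% and 61.1% of the TPM in wild-type and 68.6% and 62.6% in heterozygous hearts, and with these genes removed the median of the table was -0.31. With TPM rescaled over nuclear protein-coding genes only, the median of the table was 0.05 and that of the intercalated disc genes -0.19. Plain ratios between genes of the same library do not depend on this scaling and are given below for that reason, while their tested differences carry the added 1. Since the RNA came from whole tissue, fewer cells of a type and less RNA per cell cannot be told apart in any of these values.

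**Figure D2:**
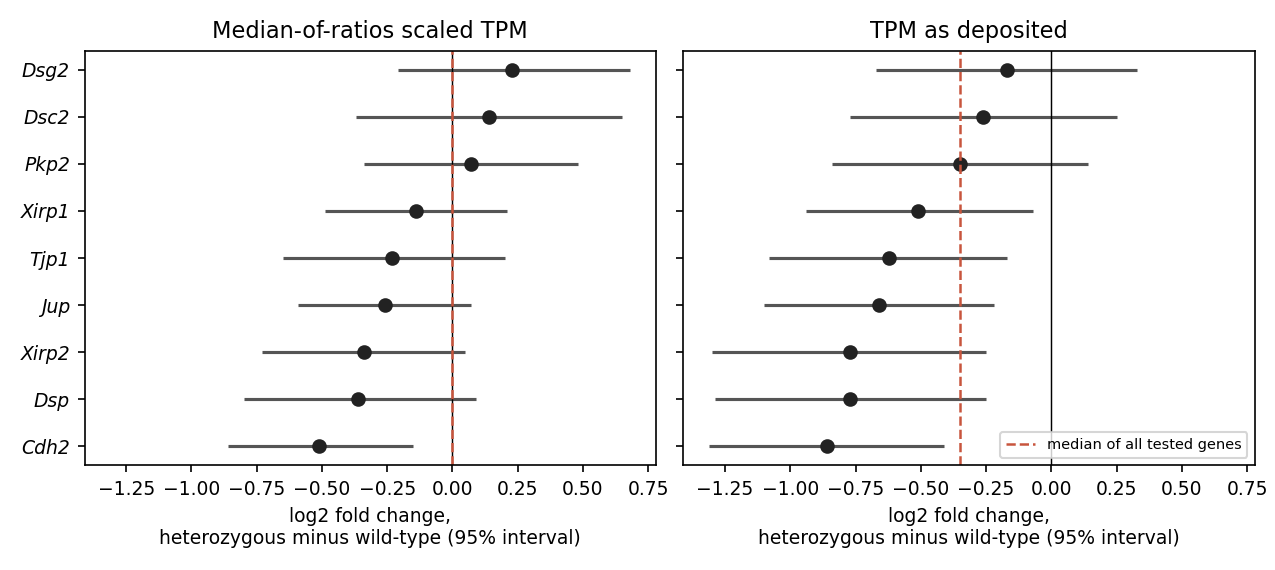
Log2 fold changes (horizontal) of the 9 tested intercalated disc genes with 95% intervals from limma, on scaled TPM (left) and on TPM as deposited (right), where the dashed line marks the median of all tested genes. The order of the genes is much the same in both panels, from *Cdh2* at -0.51 and -0.86 to *Dsg2* at 0.23 and -0.17.

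*Dsg2* and *Dsc2* encode desmoglein 2 and desmocollin 2, the transmembrane cadherins whose outer parts bind those of the next cell. Both lie on chromosome 18. *Dsg2* (ENSMUSG00000044393.15) had 8.25 and 11.51 TPM in wild-type and 9.38 and 7.79 TPM in heterozygous hearts. In scaled TPM the values were 7.58 and 9.14 against 11.5 and 8.62, so that the genotypes overlapped (log2 fold change 0.23, standard error SE 0.19, adjusted p = 0.612 from limma). *Dsc2* (ENSMUSG00000024331.11) had 8.63 and 11.02 TPM in wild-type and 9.42 and 6.73 TPM in heterozygous hearts. Here the heterozygous hearts held both the highest and the lowest scaled value, 11.5 and 7.45 against 7.93 and 8.75 in the wild-type hearts (log2 fold change 0.14, SE 0.21, adjusted p = 0.8). The 95% intervals of the fold changes, 0.864 to 1.60 for *Dsg2* and 0.776 to 1.57 for *Dsc2*, leave room for differences of more than 1.5-fold upwards. The 2 cadherin mRNAs kept close to equal levels within each heart, with *Dsg2* to *Dsc2* ratios of 0.956 and 1.04 in wild-type and 0.996 and 1.16 in heterozygous hearts. Without heterozygous replicate 1 the log2 fold change of *Dsc2* was -0.14, and in TPM as deposited both genes had negative values (-0.17 for *Dsg2*, -0.26 for *Dsc2*).

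*Dsp* encodes desmoplakin, which ties the desmosomal plaque to desmin filaments (ENSMUSG00000054889.10, mm10 chromosome 13, 38151294 to 38198577, plus strand). It had 13.86 and 19.56 TPM in wild-type and 9.96 and 8.58 TPM in heterozygous hearts. Both heterozygous hearts were lower on the deposited and on the scaled values, which were 12.7 and 15.5 against 12.2 and 9.50, although wild-type replicate 1 and heterozygous replicate 1 lay close together. The log2 fold change was -0.36 (SE 0.19, 95% interval -0.80 to 0.09, adjusted p = 0.463 from limma). *Pkp2* encodes plakophilin 2, the armadillo protein that links the desmosomal cadherins to desmoplakin (ENSMUSG00000041957.15, chromosome 16, 16213318 to 16272712, plus strand). *Pkp2* was lower in both heterozygous hearts on the deposited values only. It had 16.12 and 20.33 TPM in wild-type and 14.79 and 13.25 TPM in heterozygous hearts. In scaled TPM it overlapped between genotypes, with 14.8 and 16.1 against 18.1 and 14.7 and a log2 fold change of 0.07 (SE 0.17, adjusted p = 0.88), which was -0.35 in TPM as deposited and -0.07 without heterozygous replicate 1.

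*Jup* encodes plakoglobin, an armadillo protein found in both desmosomes and adherens junctions (ENSMUSG00000001552.14, chromosome 11, 100368958 to 100397763, minus strand). It had 9.51 and 11.40 TPM in wild-type and 5.95 and 6.52 TPM in heterozygous hearts. The scaled values within each genotype were the closest of the plaque genes, 8.74 and 9.05 in wild-type and 7.28 and 7.22 in heterozygous hearts, and they did not overlap. The log2 fold change was -0.26 (SE 0.14, 95% interval -0.59 to 0.07, adjusted p = 0.467 from limma). The bases upstream of its start are shown because CTCF is the mutated factor and CCCTC is the core of the sequence it is named after. The sequence was taken from RefSeq on GRCm38.p6 (chr11:100397791-100398040, minus strand, the 250 bases before the start), with each CCCTC or its complement GAGGG in capitals.

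Jup: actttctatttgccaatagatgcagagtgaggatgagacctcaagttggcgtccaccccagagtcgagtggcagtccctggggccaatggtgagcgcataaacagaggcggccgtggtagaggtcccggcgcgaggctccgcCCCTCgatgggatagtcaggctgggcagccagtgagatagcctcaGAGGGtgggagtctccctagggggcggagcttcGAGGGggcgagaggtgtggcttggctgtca

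The window held 3 matches on both strands together. The *Dsp* window held 4, that of *Tjp1* 1, those of *Ctnna3* 2, 0 and 1, and 60.5% of the 32851 windows of the same length in the table held at least 1. Such a match describes the letters only and says nothing of CTCF binding. G and C made up 62.0% of the *Jup* window, 72.4% of that of *Dsp* and 63.2% of that of *Tjp1*. They made up 67.6%, 44.8% and 45.6% of those of *Ctnna3* and 46.8% of that of *Xirp2*, beside a median of 52.4% over all windows. Windows of 5 of the intercalated disc genes were searched (*Ctnna3*, *Dsp*, *Jup*, *Tjp1* and *Xirp2*), and those of *Jup* and *Xirp2* are printed. Windows of *Dsg2*, *Dsc2* and *Cdh2* were not searched.

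Within each heart, the make-up of the desmosome mRNA could be read without any scaling. The 5 desmosome genes together had 56.4 and 73.8 TPM in wild-type and 49.5 and 42.9 TPM in heterozygous hearts. *Dsp* took 24.6% and 26.5% of this sum in wild-type and 20.1% and 20.0% in heterozygous hearts, a mean of 25.5% ± 1.35 against 20.1% ± 0.0758 (SD, n = 2 each). The share of *Jup* was 16.2% ± 1.01 against 13.6% ± 2.25, with the closest hearts at 15.4% and 15.2%. The 3 other genes took larger shares in the heterozygous hearts, *Dsg2* with 15.1% ± 0.676 against 18.6% ± 0.55, *Dsc2* with 15.1% ± 0.27 against 17.4% ± 2.36 and *Pkp2* with 28.1% ± 0.747 against 30.4% ± 0.727. Without heterozygous replicate 1 the difference was 0.58 percentage points for *Dsc2* and -0.948 for *Jup*, while for *Dsp* it lay between -6.43 and -4.52 without any 1 heart. None of the 5 shares overlapped between genotypes, and as they add up to a fixed sum they are not independent. The exact permutation test (two-sided) gave p = 0.333 for each, the smallest that 2 hearts against 2 allow (0.333 after adjustment over the 5 shares). The summed plaque genes exceeded the summed cadherins 2.34-fold and 2.28-fold in the wild-type and 1.63-fold and 1.95-fold in the heterozygous hearts (exact permutation test, p = 0.333).

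**Figure D3:**
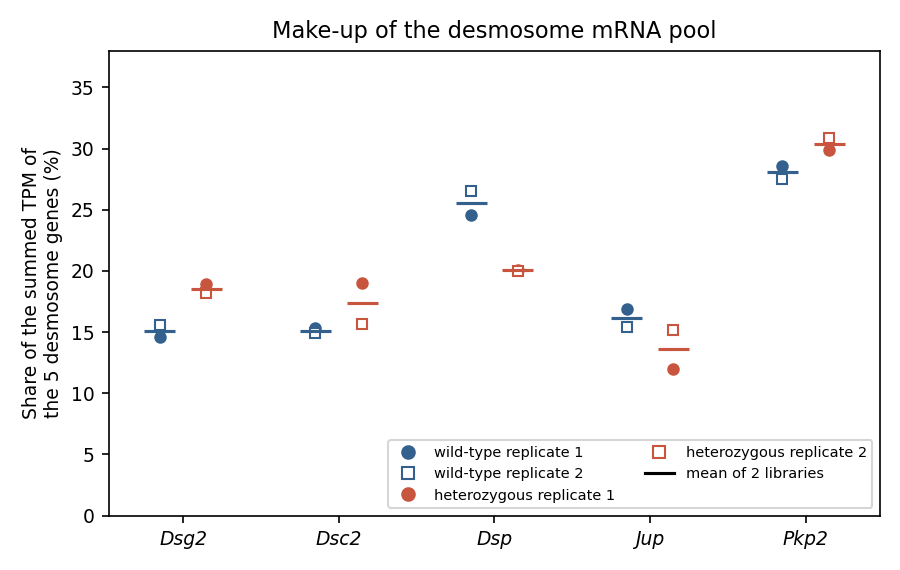
Share (vertical, %) of each of the 5 desmosome genes in their summed TPM in each heart, with wild-type in blue, heterozygous in red, circles for replicate 1, squares for replicate 2 and bars for the mean of 2 libraries. *Dsp* took 24.6% and 26.5% in wild-type and 20.1% and 20.0% in heterozygous hearts, the widest gap of the 5.

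*Cdh2* encodes N-cadherin, the classical cadherin of cardiac adherens junctions (ENSMUSG00000024304.14, chromosome 18). It had 4.76 and 6.81 TPM in wild-type and 2.65 and 2.73 TPM in heterozygous hearts. Both heterozygous hearts were lower, also in scaled TPM, with 4.38 and 5.41 against 3.24 and 3.02. The log2 fold change of -0.51 (SE 0.15, 95% interval -0.86 to -0.15, adjusted p = 0.341 from limma, unadjusted p = 0.0123) was the lowest of the 9 genes, and 3.52% of all tested genes had a lower value. Ranked among the tested genes of its own library, *Cdh2* stood at the percentiles 50.7 and 57.3 in wild-type and 40.4 and 37.8 in heterozygous hearts. Its negative log2 fold change held under each alternative in which it was tested, between -0.89 and -0.28, and without any 1 library it lay between -0.63 and -0.37.

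*Ctnna3* encodes alpha-T-catenin, an actin-linking catenin of the heart (ENSMUSG00000060843.11, chromosome 10, 63430098 to 65003667, plus strand). It was listed at 0.66 and 0.64 TPM in wild-type and 0.56 and 0.51 TPM in heterozygous hearts, below the minimum mean of 1 TPM. Fitted without that minimum, its log2 fold change was 0.06 (SE 0.10, adjusted p = 0.856 from limma), a value that the added 1 draws towards 0. The related alpha-catenin gene *Ctnna1* had 31.87 and 46.70 TPM in wild-type and 26.75 and 28.19 TPM in heterozygous hearts. *Ctnna3* therefore stood at between 0.0137 and 0.0209 of the level of *Ctnna1*, in each of the 4 hearts.

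*Xirp1* and *Xirp2* encode Xin actin-binding repeat proteins, which bind actin at the intercalated disc. *Xirp2* (ENSMUSG00000027022.14, chromosome 2, 67446002 to 67526614, plus strand) was the most abundant of the 10 genes, at the percentiles 92.8 and 93.5 of all tested genes in wild-type and 91.6 and 90.7 in heterozygous hearts. It had 37.31 and 47.44 TPM in wild-type and 23.50 and 24.93 TPM in heterozygous hearts. The scaled values were 34.3 and 37.7 against 28.7 and 27.6 and did not overlap (log2 fold change -0.34, SE 0.16, 95% interval -0.73 to 0.05, adjusted p = 0.434 from limma). The bases before its start are shown because the window holds TAAAAATA, a core of the A/T-rich sites that MEF2 transcription factors of muscle bind (RefSeq, GRCm38.p6, chr2:67445752-67446001, plus strand, motif in capitals).

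Xirp2: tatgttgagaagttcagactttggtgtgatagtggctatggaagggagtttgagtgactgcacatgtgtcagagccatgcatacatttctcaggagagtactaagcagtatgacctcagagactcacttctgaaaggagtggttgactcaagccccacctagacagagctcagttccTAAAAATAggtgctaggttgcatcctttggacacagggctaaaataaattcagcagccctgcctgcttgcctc

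The motif began 73 bases before the start. On either strand it occurred in 806 of the 32851 windows of 250 bases (2.45%). It occurred in no other window that was searched for these genes, and the *Xirp2* window held no CCCTC. *Xirp1* (ENSMUSG00000079243.4, chromosome 9, 120013755 to 120023598, minus strand) was far less abundant, with 4.90 and 6.65 TPM in wild-type and 3.78 and 3.67 TPM in heterozygous hearts. In scaled TPM it overlapped between genotypes, at 4.50 and 5.28 against 4.62 and 4.06 (log2 fold change -0.14, SE 0.15, adjusted p = 0.707). The ratio of *Xirp1* to *Xirp2* was 0.131 and 0.140 in wild-type and 0.161 and 0.147 in heterozygous hearts.

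*Tjp1* encodes ZO-1, the scaffold protein that binds connexin 43 at the edge of gap junctions (ENSMUSG00000030516.14, chromosome 7, 65296165 to 65527781, minus strand). It had 9.34 and 10.90 TPM in wild-type and 6.94 and 5.54 TPM in heterozygous hearts. In scaled TPM the wild-type hearts lay at 8.59 and 8.65, heterozygous replicate 1 just below them at 8.49 and heterozygous replicate 2 at 6.13. The log2 fold change of -0.23 (SE 0.18, adjusted p = 0.609 from limma) was -0.02 without heterozygous replicate 2, so that 1 heart decided the value.

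In the wild-type hearts the order of the TPM levels was *Xirp2*, *Pkp2*, *Dsp*, *Jup*, *Tjp1*, *Dsg2*, *Dsc2*, *Cdh2*, *Xirp1* and *Ctnna3*. The ranges of the 2 libraries overlapped between *Pkp2* and *Dsp*, from *Jup* to *Dsc2*, and between *Cdh2* and *Xirp1*. Such ranges take no account of the pairing of genes within a heart. Within both wild-type hearts *Pkp2* stood above *Dsp*, with ratios of 1.16 and 1.04. In the heterozygous hearts the order by mean was *Xirp2*, *Pkp2*, *Dsp*, *Dsg2*, *Dsc2*, *Tjp1*, *Jup*, *Xirp1*, *Cdh2* and *Ctnna3*, with overlap between each of the neighbours from *Dsp* to *Jup*. There *Xirp1* stood above *Cdh2* without overlap, at mean levels of 3.72 and 2.69 TPM, where the wild-type means had been 5.78 and 5.79 TPM. The ranges of *Pkp2* and *Dsp*, which overlapped in the wild-type hearts, were apart in the heterozygous hearts at 14.0 ± 1.09 and 9.27 ± 0.976 TPM (SD, n = 2).

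Of 6 ratios between genes of the same library, 3 did not overlap between genotypes (*Cdh2* to *Dsg2*, *Pkp2* to *Dsp* and *Xirp1* to *Xirp2*). The ratio of *Cdh2* to *Dsg2* was 0.577 and 0.592 in wild-type and 0.283 and 0.350 in heterozygous hearts. On the log2(TPM + 1) scale this difference was -0.69, the widest of the 6, and it was -0.89 in log2 of the plain ratio, which no scaling of a library can move. The wild-type hearts were nearly equal. The ratio of *Pkp2* to *Dsp* was 1.16 and 1.04 in wild-type and 1.48 and 1.54 in heterozygous hearts. This was a difference of 0.42 on the log2(TPM + 1) scale and 0.46 in log2 of the plain ratio. With the added 1 the differences were 0.27 for *Xirp1* to *Xirp2* and 0.37 for *Ctnna3* to *Ctnna1*, and in log2 of the plain ratios 0.18 and 0.21. The latter pair was apart only with the added 1, where its difference was 0.09 without wild-type replicate 2. Each of these 4 gave p = 0.333 in the exact permutation test (two-sided, 0.5 after adjustment over the 6 ratios), the smallest that this design allows. The ratios of *Dsg2* to *Dsc2* and of *Jup* to *Dsp* overlapped between genotypes (exact permutation test, p = 0.667 for both), and *Jup* to *Dsp* was 0.686 and 0.583 against 0.597 and 0.760.

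**Figure D4:**
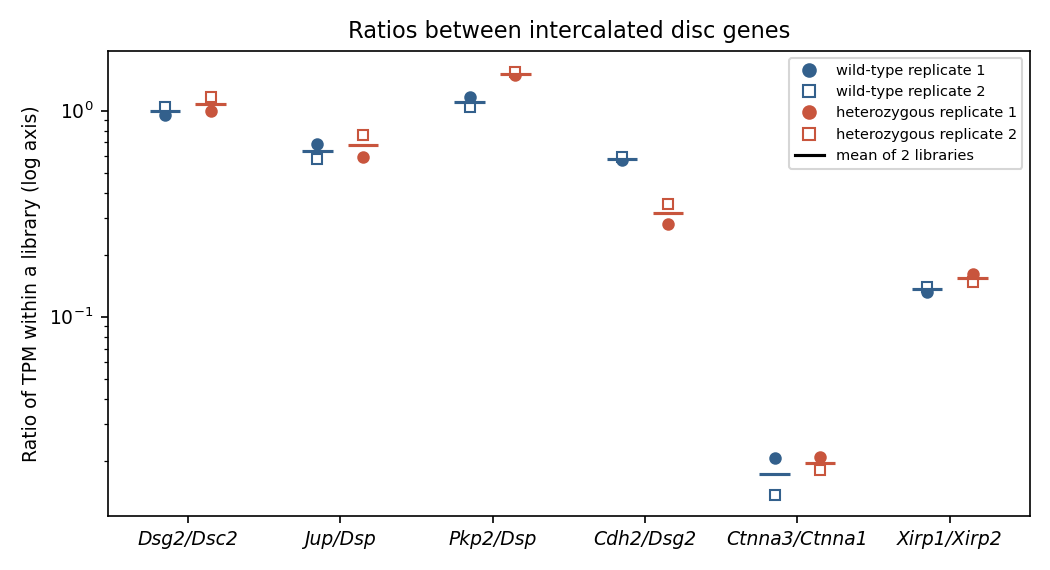
Ratio of the TPM of 2 genes in the same library (vertical, log axis) for 6 pairs, with wild-type in blue, heterozygous in red, circles for replicate 1, squares for replicate 2 and bars for the mean of 2 libraries. The *Cdh2* to *Dsg2* ratio was 0.577 and 0.592 in wild-type and 0.283 and 0.350 in heterozygous hearts, and the *Pkp2* to *Dsp* ratio was higher in both heterozygous hearts.

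A further 18 genes of the intercalated disc were read from the same fit. All 18 were tested and 0 passed the threshold in limma, while 1 (*Vcl*) had an unadjusted p under 0.05. Their median log2 fold change was 0.00, with 9 genes below 0 and 9 above, and both heterozygous hearts were lower for 3 and higher for 4, beside 23.3% and 23.7% of all tested genes. In TPM as deposited they were lower for 14 and higher for 0, beside 67.8% lower in the whole table, with a median of -0.43. *Vcl* encodes vinculin, an actin linker of adherens junctions, and had 7.07 and 8.09 TPM in wild-type and 3.95 and 2.88 TPM in heterozygous hearts. Its log2 fold change of -0.59 (SE 0.19, adjusted p = 0.345 from limma) was the lowest of this list. *Gja1* encodes connexin 43, the main gap junction protein of the ventricle, and had 20.31 and 28.33 against 17.05 and 16.98 TPM. In scaled TPM *Gja1* overlapped between genotypes with a log2 fold change of -0.05 (SE 0.17), as did *Ctnna1* with -0.04 and the desmin gene *Des*, at 99.53 and 130.20 against 56.79 and 83.94 TPM, with -0.27 (SE 0.21). *Ctnnb1*, which encodes beta-catenin, had 36.79 and 50.29 against 24.65 and 30.25 TPM and a log2 fold change of -0.20. *Myzap*, *Sorbs2* and *Tmem43*, which encode further proteins of the disc or, for *Tmem43*, of the nuclear envelope, had log2 fold changes of 0.33, 0.31 and 0.28 in scaled TPM, with negative values of -0.11, -0.13 and -0.08 in TPM as deposited.

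**Figure D5:**
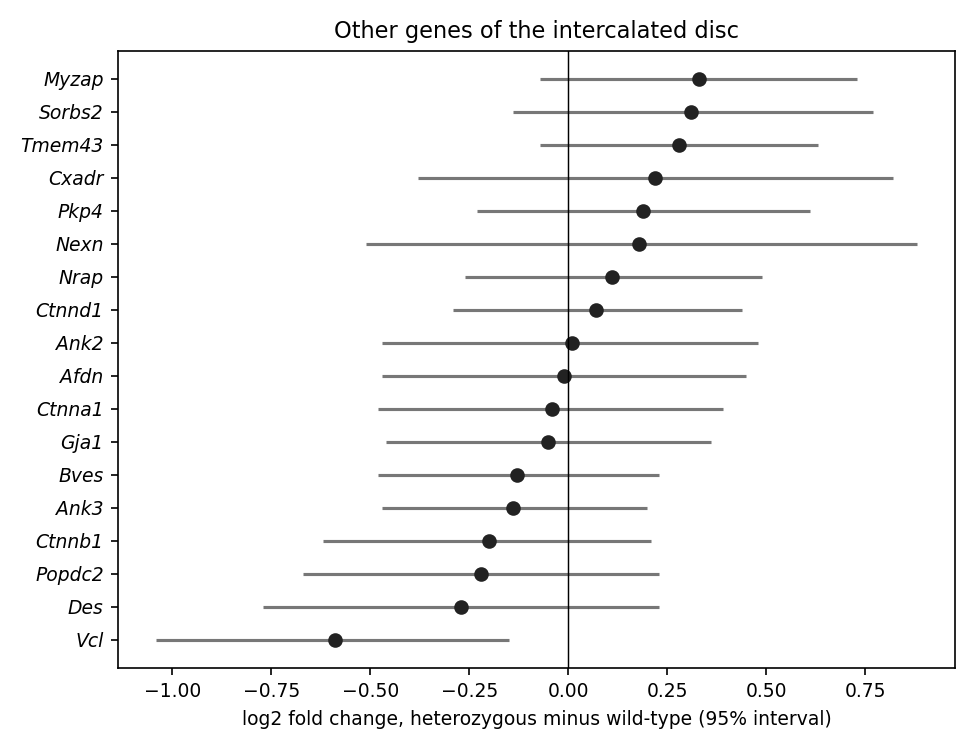
Log2 fold changes in scaled TPM (horizontal) of 18 further intercalated disc genes with 95% intervals from limma. The values run from *Vcl* at -0.59 to *Myzap* at 0.33, and none passed the threshold.

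Desmosome RNA from an epithelium was looked for with 12 desmosome or adhesion genes of epithelia. Of these, 5 (*Dsg1b*, *Dsg3*, *Dsg4*, *Dsc1* and *Pkp1*) were listed at 0 in all 4 hearts, and *Perp*, a desmosome-associated membrane protein gene also expressed outside epithelia, was the highest with 7.10 and 9.03 against 3.82 and 5.43 TPM (log2 fold change -0.31, adjusted p = 0.462 from limma). The desmosomal cadherins of this list were at or near 0, as was *Cdh1* with 0.02 and 0.01 against 0 and 0 TPM. *Ppl* had 2.27 and 2.12 against 1.56 and 1.45 TPM. *Dsg2* and *Dsc2* stood near 9 TPM, and whether part of their RNA came from an epithelium was not tested.

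Marker lists of the cell types in the tissue were compared for the same reason, and 0 of their genes passed the threshold in limma. Of 8 cardiomyocyte genes, 3 were lower and 0 higher in both heterozygous hearts (23.3% and 23.7% of all tested genes), and their summed scaled TPM of 23743 and 22256 in the wild-type overlapped with 19443 and 23048 in the heterozygous hearts. Their median log2 fold change was -0.19, close to the -0.23 of the intercalated disc genes, with *Myh6* at 0.08 and *Actc1* at -0.46. In TPM as deposited all 8 were lower in both heterozygous hearts, beside 67.8% of the table, and the medians were -0.63 and -0.62. The 4 atrial genes differed between hearts of the same genotype, with sums of 806 and 2354 against 1918 and 3281 scaled TPM. *Nppa* had a log2 fold change of 0.95, which was 0.14 without wild-type replicate 1, 1.76 without wild-type replicate 2, 1.34 without heterozygous replicate 1 and 0.55 without heterozygous replicate 2. Cells that also express N-cadherin or ZO-1 were followed by 7 endothelial genes (sums of 271 and 272 against 302 and 348, *Egfl7* at 0.39 and *Cldn5* at -0.50), 7 fibroblast genes (57.8 and 81.3 against 54.6 and 58.4, *Dcn* at -0.56), 5 mural genes (67.9 and 60.5 against 48.2 and 60.3, *Rgs5* at -0.19 and *Acta2* at -0.54) and 8 mesothelial genes (11.0 and 12.2 against 10.5 and 15.0, *Msln* at -0.02 and *Upk1b* at 0.47). Most of the endothelial sum was *Egfl7* (197 and 193 against 235 and 277 scaled TPM), while 5 of the 7 genes had negative log2 fold changes, 3 were lower and 2 higher in both heterozygous hearts, and the median was -0.14. Among the fibroblast genes, 5 had negative and 2 positive log2 fold changes, with a median of -0.13. *Dcn* held 29.7 and 45.1 against 20.7 and 29.0 scaled TPM of their sums. Of the mural genes, 4 had negative and 1 positive log2 fold changes, with a median of -0.14. Only 4 of the 8 mesothelial genes were tested, 2 with negative and 2 with positive log2 fold changes and a median of 0.03. The sums of 4 macrophage genes overlapped (15.7 and 15.0 against 12.4 and 18.0, *C1qa* at -0.12 and *Cd68* at 0.23), as did those of 4 erythroid genes (928 and 985 against 964 and 2116, *Hbb-bs* at 0.53 and *Hba-a2* at 0.63, which were 0.00 and 0.07 without heterozygous replicate 2 and 1.07 and 1.19 without heterozygous replicate 1), and no adipocyte gene exceeded 0.36 TPM (*Adipoq*). Of 4 genes of cardiac stress, *Nppb* and *Ankrd1* were higher in both heterozygous hearts in scaled TPM, with log2 fold changes of 0.70 (adjusted p = 0.341 from limma) and 0.30, while *Acta1* (0.20) and *Myh7* (-0.44) overlapped. In TPM as deposited *Nppb* and *Ankrd1* overlapped between genotypes, at 0.25 and -0.14. *Ankrd1*, *Acta1* and *Myh7* were named after their values were seen. The part of any of these lists in the values of the intercalated disc genes was not tested.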

How the data were processed

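The authors deposited TPM values per gene for heart RNA of 4 mice. Reads were trimmed with Trim Galore, aligned to mm10 with STAR and quantified with RSEM, as the study's methods state. The annotation release is not given in the sources used here. DESeq2, which the authors ran on counts, was not run here. TPM keep no depth, so precision rests on 2 hearts in each group. Groups and replicate numbers were taken from the sample titles.

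TPM were scaled by median-of-ratios factors taken over the tested genes above 0 in all libraries, and log2(scaled TPM + 1) of the 10036 genes that averaged at least 1 TPM was fitted with limma (3.58.1, R 4.3.3, empirical Bayes with trend, two-sided, Benjamini-Hochberg over all tested genes). Genes were called where the adjusted p lay under 0.05 and the fold exceeded 1.5. Ratios and shares within a library were compared by exact permutation tests in SciPy (1.17.1). The scripts were tested on simulated data. Coordinates are those of GENCODE M21 on mm10, to which 55141 of 55401 identifiers matched, and only 3 of the 10 genes shared annotated exon bases with another gene, none of which exceeded 0.28 TPM.

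The 10 genes and all lists were chosen with earlier results of these data known. All 10 are named, with 8 of the other disc genes (*Gja1*, *Des*, *Vcl*, *Ctnnb1*, *Ctnna1* and those reported here of the 4 others with the largest log2 fold change) and, of each marker list, the gene with the highest TPM and the one with the largest change. Some genes of the list of other disc genes are not reported here. Shares within the desmosome genes and the ratio of plaque genes to cadherins were added after the values were seen. One scaling alternative was also chosen after seeing the data. Alternatives were other pseudocounts, filters, scalings and moderation settings, a replicate block and each library left out in turn.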

Additional observations from a re-analysis of the deposited data

How the results depend on the processing

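No intercalated disc gene passed the threshold under any of the 17 alternatives, nor did any other gene of the disc, epithelial desmosome or marker lists, and the smallest adjusted p of an intercalated disc gene was 0.0693. The number of genes called over the whole table, 2 by default, was 4 with a pseudocount of 0.1, 0 with no filter on low values (2134 genes had an unadjusted p under 0.05 in limma), 13 in TPM as deposited, 14 with mt- genes removed and TPM rescaled, 5 with robust moderation and between 11 (without heterozygous replicate 2) and 15 (without heterozygous replicate 1) with a library left out, and 14 and 13 without wild-type replicates 1 and 2. In such fits the remaining heart of a genotype is assumed to vary like the pair of the other. Same-numbered hearts are of different mice, and the labels do not say whether they share more than the number. Across genes they departed from their genotype means with a correlation of 0.101. A replicate block gave 10 calls over the table, and changed no call of the genes described. The median of the intercalated disc genes, -0.23, became -0.62 for deposited TPM, -0.56 once mt- genes were removed, and between -0.27 and -0.07 with a library left out, the highest without heterozygous replicate 2. With nuclear protein-coding genes only, both heterozygous hearts were lower for 3 rather than 5 of them.

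Of the 9 tested genes, 6 kept their sign under each alternative in which they were tested, and *Ctnna3* was fitted only without the filter. With mt- genes removed, *Dsg2* was at -0.07, *Dsc2* at -0.17 and *Pkp2* at -0.25, and in TPM as deposited they were at -0.17, -0.26 and -0.35. With a library left out, *Dsc2* ranged from -0.14 to 0.42 and *Pkp2* from -0.07 to 0.21, both lowest without heterozygous replicate 1. Of other genes, the signs of the following turned. In TPM as deposited, *Myzap* was at -0.11, *Sorbs2* at -0.13, *Tmem43* at -0.08, *Myh6* at -0.37, *Egfl7* at -0.06, *Cd68* at -0.06 and *Ctcf* at -0.29. On the same scale *Ankrd1* was at -0.14 and *Acta1* at -0.24, and their values under other alternatives are not given. With mt- genes removed, *Sorbs2* was at -0.02, *Myh6* at -0.26 and *Ctcf* at -0.21. With nuclear protein-coding genes only, *Gja1* and *Ctnna1* were at 0.01 and *Msln* at 0.03, and *Myh6* was at -0.30 under quantile normalization. With a library left out, *Gja1* ranged from -0.18 to 0.08, *Ctnna1* from -0.21 to 0.12, *Myh6* from -0.03 to 0.18, *Msln* from -0.24 to 0.19, *Rgs5* from -0.44 to 0.06, *C1qa* from -0.44 to 0.21 and *Ctcf* from -0.06 to 0.27. The log2 ratio of *Dsg2* to *Dsc2* differed by -0.01 to 0.19 and that of *Jup* to *Dsp* by -0.04 to 0.27 with a library left out, while the other ratios kept their direction (*Cdh2* to *Dsg2* between -0.83 and -0.56, *Pkp2* to *Dsp* between 0.35 and 0.50). The cause of these changes was not tested.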
